A study of Macaca radiata with 6 samples.

Results

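Transcripts of the liver X receptor (LXR) axis and of lipid handling were followed in the bonnet monkey (Macaca radiata) corpus luteum, the ovarian gland that makes progesterone, through 4 genes: NR1H3, SREBF1, LPL and NPC2. They were read by every probe set of the deposited array table that carries one of these genes as its single symbol in the platform annotation, which gave 9 of 52865 probe sets. NR1H3 and NPC2 had 1 probe set each, SREBF1 had 3 and LPL had 4. The genes were selected on the difference in their signals between the treated and the vehicle arrays of this series. Their differences are therefore given as descriptions, without a test.

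The study compared the corpus luteum after prostaglandin F2-alpha (PGF2alpha), a prostaglandin that brings about regression of the gland, with the gland after vehicle. Female monkeys on day 10 of the luteal phase received 3 intramuscular injections of PGF2alpha at 59 µg/kg or phosphate-buffered saline as vehicle, and the gland was taken at 24 h. Each group had 3 arrays, named here PGF2alpha replicates 1 to 3 and vehicle replicates 4 to 6. The labels name 3 monkeys per group but tie no array to an animal, so a p-value here reflects the scatter among 6 samples that may not all be separate animals. Values are linear signals of the MAS5 algorithm, and the median signal of an array lay between 115 and 134. The chip carries rhesus macaque probes, so mismatched probes could lower a signal in either group. Whole tissue was used, and in such samples fewer cells of a type and less RNA per cell cannot be told apart.

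LXR-alpha, the product of NR1H3, is a nuclear receptor that pairs with a retinoid X receptor and is switched on by oxysterols, the oxidised forms of cholesterol. Its targets include cholesterol exporters, apolipoprotein E, lipoprotein lipase and the gene SREBF1, whose product SREBP-1 drives genes of fatty acid synthesis after SCAP has escorted it from the endoplasmic reticulum to the Golgi. Lipoprotein lipase, the product of LPL, hydrolyses the triglycerides of circulating lipoproteins. NPC2 is a soluble lysosomal protein that hands cholesterol to NPC1 for export. Luteal cells use lipoprotein cholesterol to make progesterone, and macrophages also express LXR-alpha, LPL and NPC2.

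Signals of NR1H3, NPC2 and at least 2 probe sets each of SREBF1 and LPL lay higher on all 3 PGF2alpha arrays than on any vehicle array. The remaining probe set of SREBF1 and the remaining 2 of LPL lay lower. LPL showed the widest difference among the 4 genes, about 1.9 on the log2(signal + 40) scale on the 2 probe sets that lay higher. The 9 probe sets were without overlap between the groups, 8 of them among those tested, where 26.8% of all tested probe sets were without overlap (13% higher and 13.7% lower). In the fit over all probe sets, 4 of the 8 tested passed an adjusted p of 0.05, all 4 of them higher, against 5.01% of all tested probe sets (3.02% higher and 1.99% lower). Both counts follow from how the genes were chosen, and nothing is read from them.

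**Figure D1:**
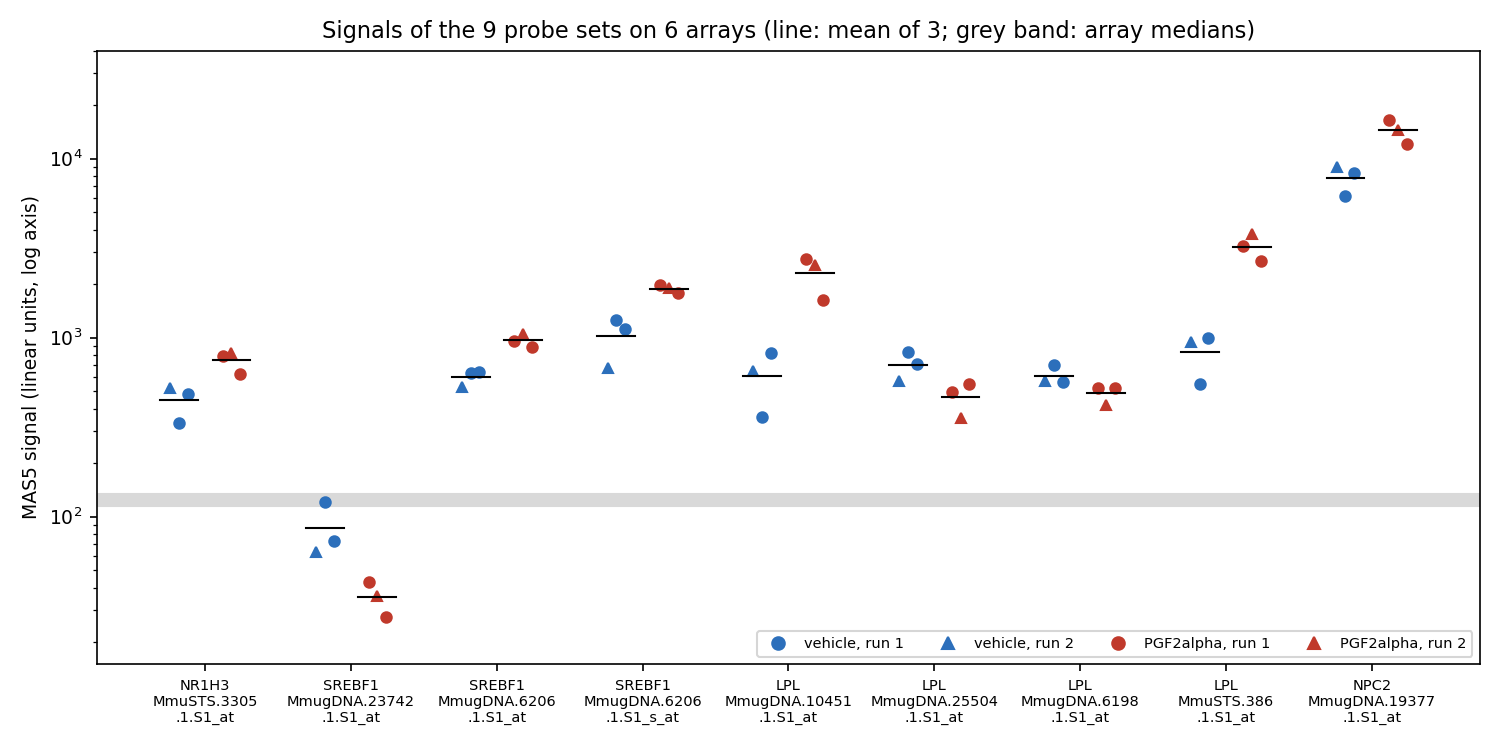
MAS5 signal (linear units on a log axis) of each of the 9 probe sets on the 6 arrays, vehicle in blue and PGF2alpha in red, with circles for hybridisation run 1, triangles for run 2, a line at each mean of 3 arrays and a grey band over the 6 array medians. The groups separate on every probe set, upward for 6 and downward for 3, and SREBF1 MmugDNA.23742.1.S1_at lies below the band on all arrays but 1, where it lies within it.

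NR1H3 is the receptor of the axis. Its probe set, MmuSTS.3305.1.S1_at, read 791, 824 and 628 on PGF2alpha replicates 1, 2 and 3, and 526, 332 and 483 on vehicle replicates 4, 5 and 6. The groups did not overlap, although PGF2alpha replicate 3 and vehicle replicate 4 lay near each other. The means were 748 ± 105 after PGF2alpha and 447 ± 102 after vehicle (SD, n = 3), 1.67 times higher after PGF2alpha. The log2 difference was 0.71 with a standard error (SE) of 0.203, from the fit over all probe sets, which moderates each variance. The difference was 0.76 among the 4 arrays of hybridisation run 1 and 0.61 between the 2 arrays of run 2. Runs were inferred from the clock hour of hybridisation. Without vehicle replicate 5, the lowest array, the difference was 0.52.

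SREBF1, which encodes SREBP-1, was read by a pair of probe sets with one name stem and by a dim one apart from them. MmugDNA.6206.1.S1_s_at gave signals of 1954, 1890 and 1771 on the PGF2alpha arrays and 677, 1251 and 1121 on the vehicle arrays. The PGF2alpha arrays lay close together, and vehicle replicate 4 lay well below the other vehicle arrays. The means were 1872 ± 93.1 and 1016 ± 301 (SD, n = 3), and the log2 difference was 0.90 (SE 0.219). This difference was 0.63 within run 1 and 1.43 within run 2, which holds vehicle replicate 4, and it was 0.64 without that array. MmugDNA.6206.1.S1_at read 953, 1053 and 890.4 after PGF2alpha and 528, 637 and 644 after vehicle. Again the groups were apart, with means of 965 ± 81.8 and 603 ± 64.8 (SD, n = 3) and a log2 difference of 0.65 (SE 0.156), which was 0.50 within run 1 and 0.94 within run 2. The 2 probe sets differed from each other by 0.252 in their log2 difference.

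The dim SREBF1 probe set, MmugDNA.23742.1.S1_at, ran the other way. It read 42.9, 35.9 and 27.3 on the PGF2alpha arrays and 63.8, 121 and 73.3 on the vehicle arrays. It reached the array median on none of the 6 arrays, so it was not tested. Its means were 35.4 ± 7.79 and 86.1 ± 30.8 (SD, n = 3), and its log2 difference was -0.72 (SE 0.298, from a fit without the filter on low signals). Its size depends on the constant added before the log: the difference was -1.05 with a pseudocount of 10 and -0.33 with 160.

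LPL encodes the secreted lipase, and its 4 probe sets split into 2 that lay higher and 2 that lay lower after PGF2alpha. MmuSTS.386.1.S1_at read 3225, 3770 and 2662 on the PGF2alpha arrays and 943, 552 and 990.5 on the vehicle arrays. The lowest PGF2alpha array was well above the highest vehicle array. The means were 3219 ± 554 and 828 ± 240 (SD, n = 3), 3.89 times higher after PGF2alpha, with a log2 difference of 1.94 (SE 0.233). MmugDNA.10451.1.S1_at read 2750, 2530 and 1621 after PGF2alpha and 647, 360 and 822 after vehicle. It showed the same order of groups, with means of 2300 ± 599 and 610 ± 233 (SD, n = 3), 3.77 times higher after PGF2alpha, and a log2 difference of 1.88 (SE 0.297). Both differences were close to equal in the 2 hybridisation runs, at 1.93 and 1.96 for the former and 1.87 and 1.90 for the latter.

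The other 2 LPL probe sets also had signals above the array medians on all 6 arrays. MmugDNA.25504.1.S1_at read 497, 354 and 547 on the PGF2alpha arrays and 568, 833 and 708 on the vehicle arrays. Its groups lay apart by a narrow gap between PGF2alpha replicate 3 and vehicle replicate 4, with means of 466 ± 100 and 703 ± 132 (SD, n = 3) and a log2 difference of -0.56 (SE 0.209). MmugDNA.6198.1.S1_at read 521, 418 and 524 after PGF2alpha and 569, 703 and 565 after vehicle. The gap between its groups was also narrow, the means were 488 ± 60.3 and 612 ± 78.5 (SD, n = 3), and the log2 difference was -0.31 (SE 0.170). Both lay lower in each run, at -0.53 and -0.63 for MmugDNA.25504.1.S1_at and at -0.25 and -0.41 for MmugDNA.6198.1.S1_at.

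The log2 differences of the 4 LPL probe sets spanned 2.49, from values on which the gene was selected. Among the 622 genes with at least 4 tested probe sets the median span was 0.484, and 5 of them (0.804%), LPL included, had a span as wide as that of LPL. A gene with at least 2 probe sets higher and at least 2 lower, all without overlap, was found 5 times among these 622, LPL included. Which part of the LPL transcript each probe set reads was not analysed here.

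**Figure D2:**
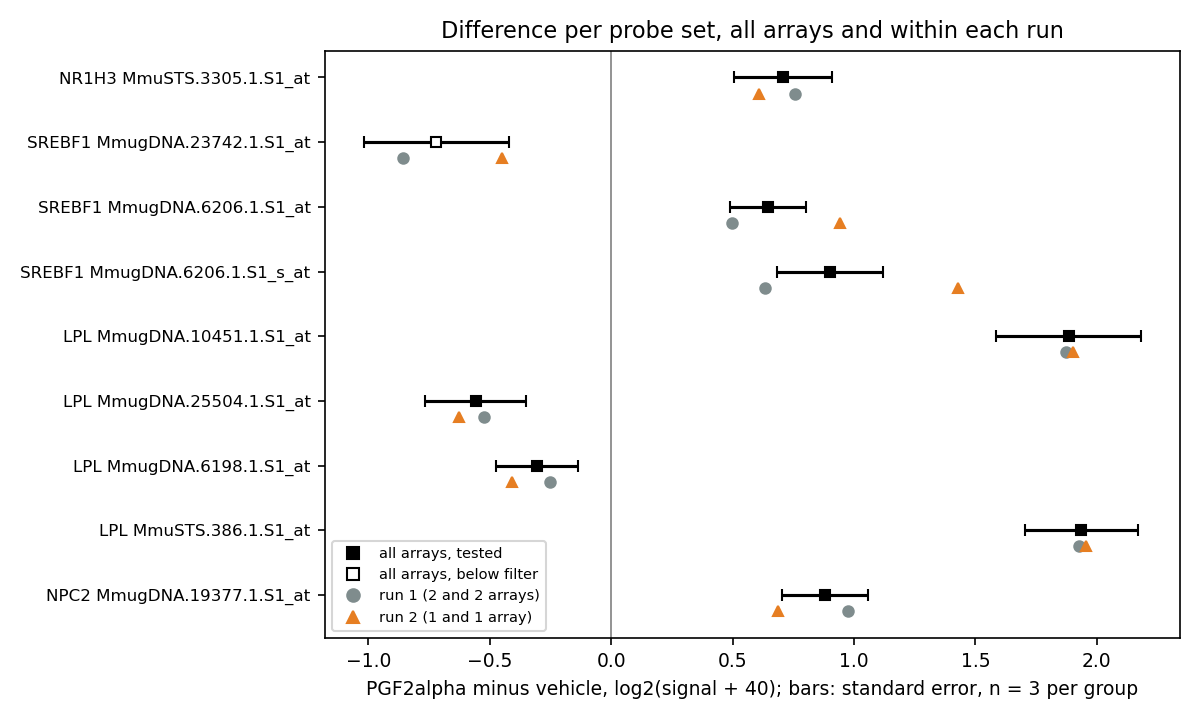
Difference between PGF2alpha and vehicle on the log2(signal + 40) scale for each of the 9 probe sets, as squares (open where the probe set was below the filter). Bars are the moderated standard errors of the fit over all probe sets, with 3 arrays per group. Circles and triangles give the values within hybridisation runs 1 and 2. No probe set changes side between the runs, and the LPL probe sets fall on both sides of 0, at 1.94, 1.88, -0.31 and -0.56.

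NPC2, the lysosomal cholesterol carrier, read 16516, 14497 and 12052 on the PGF2alpha arrays and 8990, 6160 and 8316 on the vehicle arrays with MmugDNA.19377.1.S1_at. The groups lay apart, with PGF2alpha replicate 3 the lowest of its group and vehicle replicate 5 the lowest of all 6. The means were 14355 ± 2236 and 7822 ± 1478 (SD, n = 3), 1.84 times higher after PGF2alpha, and the log2 difference was 0.88 (SE 0.178). It was 0.98 within run 1 and 0.69 within run 2.

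NR1H3, NPC2 and the 2 LPL probe sets that lay higher shared the lowest array of each group, while the order of other arrays differed. Vehicle replicate 5 was the lowest of the 6 arrays for NR1H3, NPC2 and both of these LPL probe sets. It was the highest for both LPL probe sets that lay lower after PGF2alpha and for the dim SREBF1 probe set. PGF2alpha replicate 3 was the lowest PGF2alpha array for NR1H3, NPC2, all 3 SREBF1 probe sets and the 2 LPL probe sets that lay higher. The ratio of 3′ to 5′ control probe sets of beta-actin, which rises as RNA degrades, was 1.17 on the log2 scale on vehicle replicate 5 and between 0.576 and 0.831 on the other arrays. The same ratio for GAPDH was 0.386 on vehicle replicate 5, within the 0.338 to 0.606 of the other arrays. Between the groups, neither ratio differed beyond its spread (exact permutation test, two-sided, p = 1 for beta-actin and p = 0.7 for GAPDH, with 0.1 the smallest p that 3 against 3 arrays allow). Without vehicle replicate 5 the log2 difference was 1.68 for LPL MmuSTS.386.1.S1_at, 1.57 for LPL MmugDNA.10451.1.S1_at and 0.72 for NPC2. The part of RNA quality in these values was not tested.

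Beside the 4 genes, with 6 of their 9 probe sets higher after PGF2alpha, 7 macrophage markers rose and 2 steroidogenic markers fell. Of all 9980 tested genes, 3.76% rose and 2.31% fell at the same adjusted threshold. Of 18 macrophage and monocyte markers, 16 were tested, 7 rose after PGF2alpha at an adjusted p under 0.05 (limma, Benjamini-Hochberg), and 14 had a positive difference, with a median log2 difference of 0.987. The 7 include MARCO, a scavenger receptor, which lay below the array median on all vehicle arrays and passed the filter through the PGF2alpha arrays alone. The count of those that rose was 3 without PGF2alpha replicate 1, 2 without PGF2alpha replicate 2 or vehicle replicate 6, and 4 without vehicle replicate 5, with medians between 0.853 and 1.14 whichever array was left out. Their summed signal was 53902 to 87407 on the PGF2alpha arrays and 22017 to 37461 on the vehicle arrays, and none was at 0. Vehicle replicate 5, lowest for NR1H3, NPC2 and the LPL probe sets that lay higher after PGF2alpha, was also lowest for these markers. Its median was -0.447 against the vehicle mean, where replicates 4 and 6 had 0.331 and 0.148. Of 12 steroidogenic markers, 8 were tested, and all 8 had a negative difference with an unadjusted p under 0.05 (limma). The share of all tested genes under this unadjusted threshold was not counted. HSD17B1, with the largest fall of the 8 at -1.62, passed the filter through the vehicle arrays alone, where it was high. At an adjusted p under 0.05, 2 fell: STAR, which carries cholesterol into mitochondria, and CYP17A1, an enzyme of androgen synthesis. None of the 8 passed without PGF2alpha replicate 1 or 2, 5 fell without PGF2alpha replicate 3, and 1 fell without any 1 vehicle array. Their median was -1.01 and their summed signal was 79801 to 144846 after PGF2alpha and 162888 to 194914 after vehicle, with none at 0. The median against the vehicle mean overlapped between the groups, at -1.18, -1.31 and -0.301 on PGF2alpha replicates 1 to 3 and -0.340, 0.108 and -0.041 on vehicle replicates 4 to 6. Their part in the values of the 4 genes was not tested.

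Of 10 neutrophil markers 7 were named here and only S100A8 and S100A9, which monocytes make too, passed the filter. Each reached the array median on 4 arrays, so it passed only with the PGF2alpha arrays, where it was high. Both rose, with or without any 1 array, from a summed signal of 71.3 to 244 on the vehicle arrays to 4634 to 16962 after PGF2alpha. The other 5 lay below the filter, with log2 differences of 1.09 for CSF3R, 0.46 for S100A12, 0.16 for MMP8, -0.61 for ELANE, and 0.66 and -0.28 for the 2 probe sets of MPO. Adipocytes also express LPL, and of 6 tested adipocyte markers 1 rose (2 without PGF2alpha replicate 3), RETN, which human monocytes make as well. Of the 6, 5 had a positive difference and 1 a negative one, with a median log2 difference of 0.311. FABP4 had 1.09 (limma adjusted p = 0.159), CFD 0.50 (0.320), PNPLA2 0.12 (0.703), LEP 0.11 (0.769) and ADIPOQ -0.21 (0.442). The summed adipocyte signal was 7258 to 9951 after PGF2alpha and 5476 to 5967 after vehicle. Of 12 tested endothelial markers 1 rose and 0 fell (0 rose without PGF2alpha replicate 1 or 2 or vehicle replicate 4 or 6, and 3 rose and 2 fell without PGF2alpha replicate 3), at 25847 to 36694 after PGF2alpha and 27063 to 30301 after vehicle. Muscle is a further site of LPL, and of its 3 tested markers limma called 0, with 1 at an unadjusted p under 0.05 (1 fell without PGF2alpha replicate 3), and the sum was 363 to 663 after PGF2alpha and 592 to 927 after vehicle. The part of these cell types in the values of the 4 genes was not tested.

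**Figure D3:**
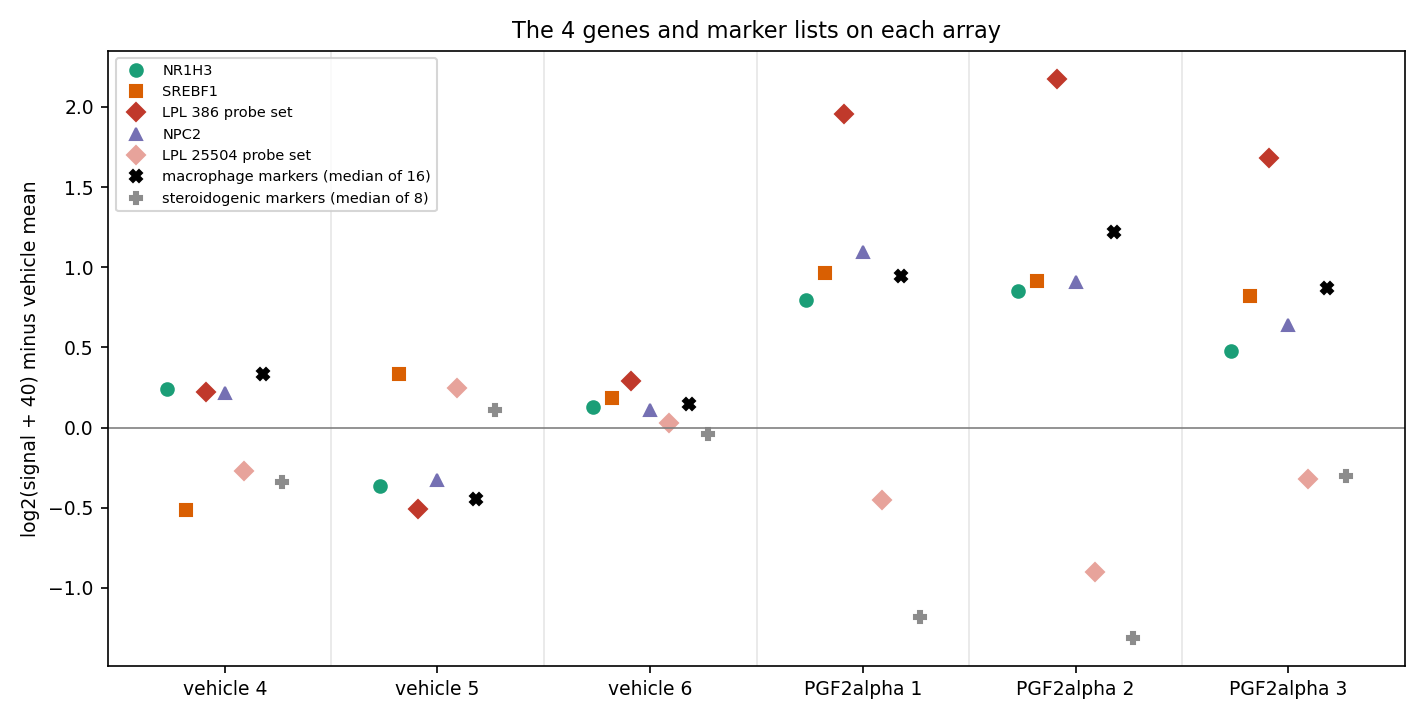
Value on each of the 6 arrays minus the vehicle mean, on the log2(signal + 40) scale, for NR1H3, SREBF1, LPL (its brightest probe set and MmugDNA.25504.1.S1_at), NPC2, and the medians of 16 macrophage and 8 steroidogenic markers. On vehicle replicate 5 the macrophage median (-0.447) lies below 0 with NR1H3, NPC2 and the LPL probe set that lay higher after PGF2alpha. The steroidogenic medians lie between -1.31 and -0.301 on the PGF2alpha arrays and between -0.340 and 0.108 on the vehicle arrays, with overlap.

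In the wider pathway around the 4 genes, 3 genes rose, 3 fell and most missed the threshold. Outside the 4 genes, 8 lists held 121 pathway genes. The annotation named 81 of them and 70 passed the filter, each read by its brightest tested probe set. After PGF2alpha, SMPDL3A, OLR1 and FABP5 rose and SCAP, PGRMC1 and ELOVL6 fell at an adjusted p under 0.05. That is 8.57% of the 70, where 6.07% of all 9980 tested genes passed (3.76% higher and 2.31% lower), and the share is near this background. The median log2 difference was 0.0818 over the 70 and -0.018 over all tested genes, and 42 of the 70 were positive. Without PGF2alpha replicate 1 or 2 none of the 70 passed. One rose and 1 fell without vehicle replicate 6, 1 fell and 0 rose without vehicle replicate 4 or 5, and 3 rose and 5 fell without PGF2alpha replicate 3. All 6 kept their direction among the 4 arrays of run 1, where none passed, at adjusted p-values of 0.134 (ELOVL6), 0.145 (SCAP), 0.154 (PGRMC1), 0.160 (SMPDL3A), 0.248 (FABP5) and 0.277 (OLR1). SCAP and PGRMC1 also missed the threshold without a variance trend, at 0.0601 and 0.0588.

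Among LXR targets, SMPDL3A, a secreted phosphodiesterase that LXR induces in human macrophages, rose from 1640 ± 98.3 to 4200 ± 1310 (SD, n = 3), a log2 difference of 1.28 (SE 0.230, limma adjusted p = 0.0187). Its second probe set rose by 1.24 (SE 0.171, limma adjusted p = 0.0086). The brighter probe set lost its call without any 1 array other than PGF2alpha replicate 3, at adjusted p-values of 0.0524 to 0.0838. The second was not examined with arrays left out. SMPDL3A was 1 of 7 tested genes of the list outside the 4, and none fell. The apolipoprotein APOE had a difference of 0.35 (adjusted p = 0.300), LPCAT3, which builds polyunsaturated chains into phospholipids, 0.36 (0.182), and NPC1, the membrane partner of NPC2, 0.29 (0.484). MYLIP, an E3 ubiquitin ligase, had -0.20 (0.588). The probe set of the cholesterol exporter ABCA1 lay below the filter, with a mean signal of 49.7 after PGF2alpha and 52.9 after vehicle. ABCG1 and SCD had no probe set named here.

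Of the receptor's partners, 0 of 8 tested passed in limma, with 1 of them at an unadjusted p under 0.05. NR1H2, which encodes LXR-beta, had a log2 difference of 0.22 (adjusted p = 0.472), and the retinoid X receptors RXRA and RXRB had -0.01 (0.995) and 0.14 (0.713). RXRA turned to 0.039 when arrays were scaled to one median. The corepressor NCOR1 had 0.37 (0.220) and the coactivators NCOA2 and EP300 had 0.18 (0.623) and -0.45 (0.330). Whether NR1H3 differed from NR1H2 in its response was not tested.

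The genes that move and process SREBPs included 2 that fell. SCAP, the SREBP escort, fell from 4558 ± 957 to 2148 ± 571 (SD, n = 3), a log2 difference of -1.09 (SE 0.219, limma adjusted p = 0.0275). PGRMC1, a haem-binding membrane protein reported to bind SCAP and INSIG1, fell from 14920 ± 1434 to 8977 ± 854, a difference of -0.73 (SE 0.132, adjusted p = 0.0190), and its 3 other tested probe sets had the same sign. SCAP and PGRMC1 each lost the call without any 1 array other than PGF2alpha replicate 3, at adjusted p-values of 0.0559 to 0.0949 and 0.0528 to 0.0764. The retention proteins INSIG2 and INSIG1 had -0.65 (0.0765) and 0.27 (0.635), the protease MBTPS2 -0.45 (0.157), and SREBF2, which encodes the SREBP of cholesterol synthesis, 0.04 (0.913). The list had 6 tested genes outside SREBF1, 0 of which rose, and its median was -0.553.

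Fatty acid and triglyceride synthesis, which SREBP-1 drives, had 14 tested genes, of which 1 fell and 0 rose, with a median of 0.0339. The gene that fell was ELOVL6, which lengthens sixteen-carbon fatty acids, from 3546 ± 338 to 1393 ± 497 (SD, n = 3), a log2 difference of -1.37 (SE 0.226, limma adjusted p = 0.0139). Its 3 other tested probe sets had the same sign. ELOVL6 missed the threshold without PGF2alpha replicate 1 (adjusted p = 0.0504) or 2 (0.0664). Fatty acid synthase, FASN, had 0.50 (0.157), DGAT2, which makes triglycerides, 0.79 (0.164), and the elongase ELOVL1 0.41 (0.171). DGAT2 passed the filter through the PGF2alpha arrays alone. SREBF1 itself lay higher on its 2 tested probe sets, as described.

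Around lipoprotein lipase, limma called 0 of 11 tested partners, inhibitors and related lipases, with 4 at an unadjusted p under 0.05. FURIN and PCSK5, proprotein convertases that cleave LPL, had log2 differences of 0.57 (adjusted p = 0.0924) and -0.66 (0.159). LMF1, which lets the lipase fold, had -0.53 (0.164), and GPIHBP1, which holds it on capillary walls, -0.33 (0.348). The inhibitors ANGPTL4 and APOC3 had -0.69 (0.291) and 0.73 (0.119). ANGPTL4 fell by 1.15 with an adjusted p of 0.00825 without PGF2alpha replicate 3.

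Lysosomal genes, the setting of NPC2, also gave 0 calls among 11 tested in limma, with 2 at an unadjusted p under 0.05 and a median of 0.126. Lysosomal acid lipase, LIPA, which frees cholesterol from its esters, had 0.18 (0.493), and HEXA, a subunit of beta-hexosaminidase, 0.20 (0.512). ORMDL3, a regulator of sphingolipid synthesis, had 0.60 (0.122). GM2A, the activator of ganglioside breakdown, had -1.11 (0.203), and it fell by 1.67 with an adjusted p of 0.0153 without PGF2alpha replicate 3.

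Uptake genes held 2 that rose among 11 tested, with a median of 0.221. OLR1, a scavenger receptor for oxidised lipoproteins, had a signal of 306 ± 198 after PGF2alpha and 65.0 ± 21.0 after vehicle (SD, n = 3), a log2 difference of 1.60 (SE 0.383, limma adjusted p = 0.0481). It passed the filter through the PGF2alpha arrays alone. OLR1 lost its call without any 1 array other than PGF2alpha replicate 3, at adjusted p-values of 0.0924 to 0.151, and also with median scaling (0.0530), a pseudocount of 160 (0.0611), no filter (0.0889) or no variance trend (0.0634). FABP5, a fatty acid carrier of the cytosol, rose from 2741 ± 1308 to 6852 ± 1720, a difference of 1.41 (SE 0.340, adjusted p = 0.0489), while its second probe set had -0.12. FABP5 lost the call without any 1 array other than vehicle replicate 6, at 0.0546 to 0.171, and also with median scaling (0.0602), a pseudocount of 10 (0.0518), no filter (0.0802), no variance trend (0.0908), robust estimation (0.0645) or array weights (0.0617). The carrier FABP4 had 1.09 (0.159), the sorting receptor SORL1 -0.77 (0.159), the fatty acid transporter CD36 0.22 (0.662) and the lipoprotein receptor VLDLR -0.37 (0.461). SCARB1 had no probe set named here.

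Of 4 tested genes of lipid droplets and sterol esters, limma called 0, with 1 at an unadjusted p under 0.05. PLIN3, a droplet coat protein, had a log2 difference of 0.85 (adjusted p = 0.0551), and without PGF2alpha replicate 3 its adjusted p was 0.00975. HILPDA and G0S2, which both inhibit adipose triglyceride lipase, had 0.08 (0.862) and 0.01 (0.979), and FITM2, which acts in droplet formation, had -0.13 (0.802). PLIN2 and SOAT1 had no probe set named here.

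**Figure D4:**
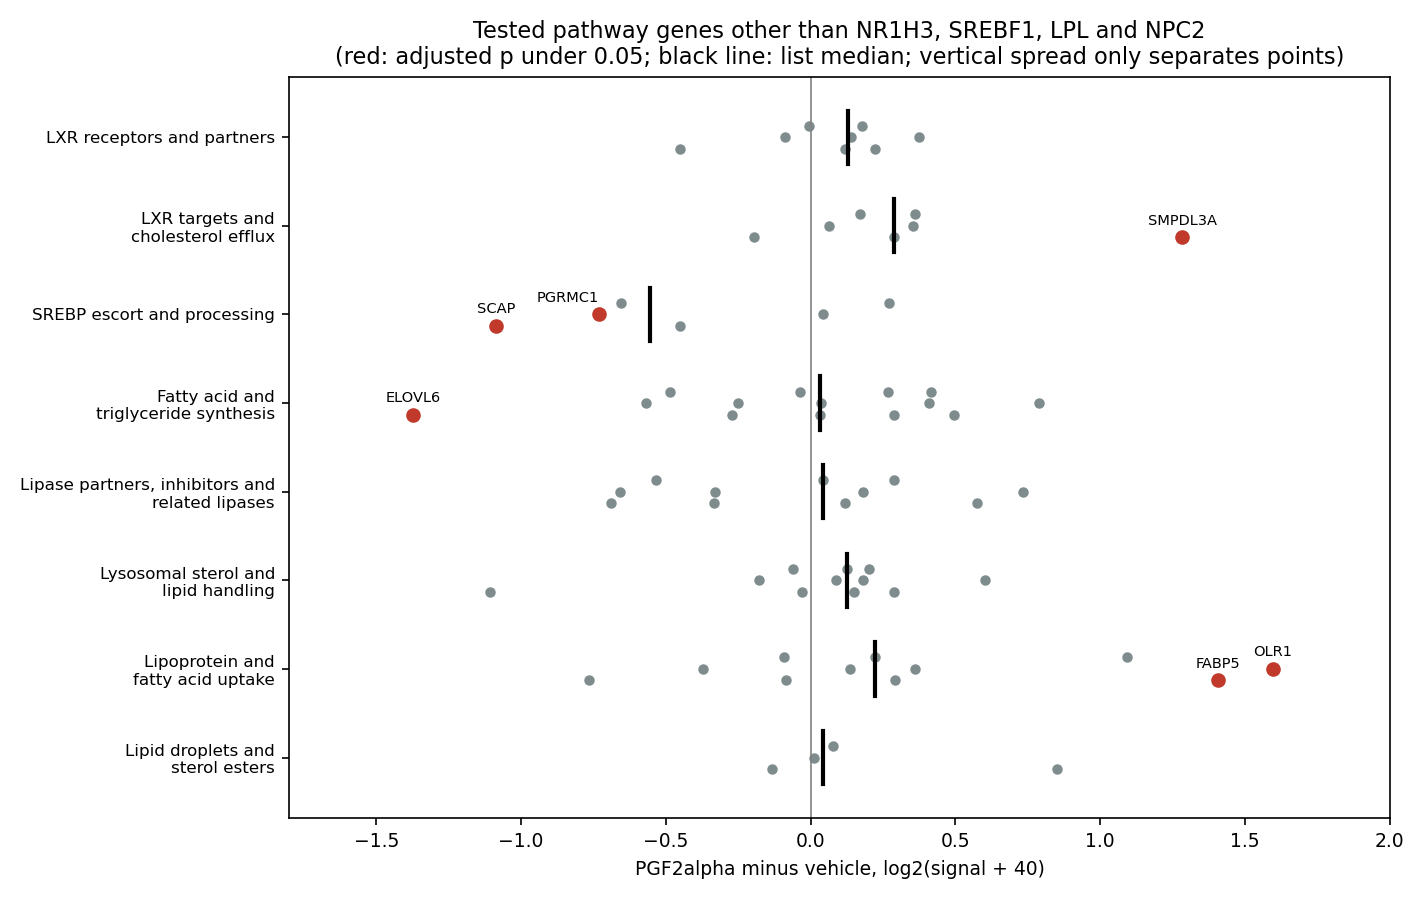
Difference between PGF2alpha and vehicle on the log2(signal + 40) scale for each tested pathway gene outside the 4, by list, with genes past an adjusted p of 0.05 in red and named, and a black line at each list's median. The 6 named genes lie at 1.60, 1.41 and 1.28 and at -0.73, -1.09 and -1.37, and list medians range from -0.553 (SREBP escort and processing) to 0.288 (LXR targets).

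The array pattern of each of the 4 genes was set beside that of 9308 named genes, as the mean absolute difference of centred log2 values over 6 arrays, on each gene's brightest tested probe set. Nearest to NR1H3 were PLEKHO2 at 0.0529, RHOC at 0.0632, CD58 at 0.0636, SLC6A8 at 0.0697 and AP2S1 at 0.0767. NPC2 lay at 0.0961 from NR1H3, and SREBF1 and LPL at 0.307 and 0.615. How many genes lay nearer to NR1H3 than NPC2 was not counted. Nearest to NPC2 were FAM174C at 0.0378, MFSD1 at 0.0561, XRN2 at 0.0586, SLC39A14 at 0.0602 and NADK at 0.0736. NR1H3 and NPC2 had close group differences and the same low vehicle array. Both were selected on their difference between the groups, which favoured such a likeness in advance.

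SREBF1 had other neighbours: SMTNL2 at 0.0572, MEIS3 at 0.0828, TRAF7 at 0.0937, TEAD2 at 0.113 and S100A2 at 0.121. Its distances to NPC2 and LPL were 0.295 and 0.591, and its lowest array was vehicle replicate 4, not 5. Nearest to LPL were CCN1, a secreted matrix protein, at 0.0828, CYBB, the catalytic subunit of the phagocyte oxidase, at 0.105, HPS3 at 0.130, RRAD at 0.140 and LCP1, an actin-bundling protein of leucocytes, at 0.155. These 5 genes had log2 differences between 1.72 and 2.19, beside 1.94 for LPL. All 6 arrays enter each distance, and the treatment contrast makes up much of it, so these likenesses are descriptions of the same 6 samples.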

How the data were processed

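Total RNA of the corpus luteum was hybridised to 6 Affymetrix arrays of the Rhesus type. The authors deposited MAS5 signal intensities on a linear scale, per the submitters' processing notes, and the MAS5 version is not given in the sources used here. After trimming 2% off each end, the mean signal was 500.035 to 500.037 on all arrays, so no further normalization was applied. Hybridisation runs were inferred here from the deposited scanner settings: arrays with the same clock hour of hybridisation were taken as 1 run. The dates were not compared. Run 1 holds PGF2alpha replicates 1 and 3 and vehicle replicates 5 and 6. Run 2 holds PGF2alpha replicate 2 and vehicle replicate 4. Detection calls and sequences were not used here.

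Of 52865 probe sets, 99 were controls, 24969 had 1 symbol, 361 several and 27535 (52.1%) none, per a platform annotation that can be old. Values were analysed as log2(signal + 40), with 40 the rounded 25th percentile of all signals, so fold changes understate those of low genes. Probe sets at or above the array median on at least 3 of 6 arrays (26944) entered a two-sided test in limma 3.58.1 under R 4.3.3 (lmFit, eBayes with trend). All their p-values were adjusted together by Benjamini-Hochberg, and 0.05 was the threshold. Of several tested probe sets of a gene, that with the highest mean stood for it (9980 genes). Bracketed values in lists of genes are adjusted p-values of this fit. The share of all tested genes at an unadjusted p under 0.05 was not counted, so nothing is read from counts at that threshold. The test was checked on simulated data. Precision is limited by the 3 arrays per group.

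The 4 genes, the 8 pathway lists and the 6 marker lists were chosen with earlier results of these data known. Named pathway genes were those of receptors, targets, uptake and processing listed by symbol, up to 4 of smallest p per list, and the 5 nearest patterns per member. ABCA1 is given although its probe set was not tested. The marker lists share MSR1, GPIHBP1, FABP4, SCARB1, PLIN1, CIDEC and PNPLA2 with the pathway lists. Alternatives were quantile or median scaling, pseudocounts of 10 and 160, other filters, eBayes without trend or robust, array weights, the run as a block or alone, other ways to represent a gene, and leaving out each array, which for the marker lists was chosen after seeing the data.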

Additional observations from a re-analysis of the deposited data

How the results depend on the processing

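No member probe set changed sign under any alternative. The log2 difference of the dim SREBF1 probe set MmugDNA.23742.1.S1_at was -1.05 and -0.33 with pseudocounts of 10 and 160 and -0.45 within run 2, and it ranged from -0.85 to -0.53 with 1 array left out. SREBF1 MmugDNA.6206.1.S1_at had 0.50 within run 1 and 0.94 within run 2, and MmugDNA.6206.1.S1_s_at had 1.43 within run 2. The other differences of the 9 probe sets moved by less than 1 SD of the replicates. The dim SREBF1 probe set has no value with the 70th-percentile filter, array weights or the run as a block.

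Of all probe sets, 1351 passed the threshold, 815 higher and 536 lower. There were 826 (533 and 293) without a filter, 669 (440 and 229) without a variance trend and 51 (44 and 7) within run 1, and array weights gave 848 lower. With 1 array left out the counts ran from 223 to 1903, from 166 to 1045 higher and from 57 to 858 lower. The count rose without PGF2alpha replicate 3 and fell without any other array. Called member probe sets numbered 0 to 5 over the alternatives: 2 without a filter or a trend, 0 within run 1, and 1 to 3 with 1 array left out.

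Among the other pathway genes the 3 that rose became 1 with median scaling, without a filter or without a trend, and 0 within run 1. The 3 that fell became 1 without a trend and 0 within run 1. With 1 array left out, 0 to 3 rose and 0 to 5 fell. Their median was 0.129 with median scaling, 0.114 within run 1 and 0.0151 within run 2, and 0.0584 to 0.113 with 1 array left out. Differences near 0 changed sign in G0S2 (-0.016 with quantile normalization, -0.017 within run 1), HILPDA (-0.028 with array weights), RXRA (0.039 with median scaling, 0.020 with a pseudocount of 160, 0.153 with array weights) and VLDLR (0.029 within run 1). With 1 array left out, differences ran from -0.0046 to 0.40 for CD36, -0.086 to 0.088 for G0S2, -0.053 to 0.22 for HILPDA, -0.0032 to 0.29 for NCOA2, -0.46 to 0.22 for RXRA and -0.052 to 0.10 for SREBF2. The causes were not tested. No paired analysis was possible because the groups share no replicate numbers, and run 2, with 1 array per group, allows no test.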

Other observations

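ME1, malic enzyme, which supplies NADPH for fatty acid synthesis, was chosen after its values were seen. Its brightest probe set had a log2 difference of 0.04, while 3 of its 4 other tested probe sets lay lower after PGF2alpha and 2 of them passed the threshold (limma, Benjamini-Hochberg over all probe sets), at -0.73 (adjusted p = 0.0342) and -0.99 (adjusted p = 0.0287). Among all 4114 genes with at least 2 tested probe sets, 90 (2.19%) had a probe set higher and another lower, without overlap between the groups. ME1 was not among them, because its probe sets with a positive difference overlapped between the groups.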
